A study of Mus musculus with 10 samples.

Results

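Pre-iPS cells are a halted state of reprogramming: fibroblasts that received the pluripotency factors, divide as colonies and never complete the change to induced pluripotent stem (iPS) cells. A mouse pre-iPS line was compared with 3 iPS lines by RNA sequencing. The members are 8 of the 10 libraries of the series, chosen by their source label: 2 pre-iPS libraries, at passages 5 and 25, and 6 iPS libraries, at the same passages of a 'control' iPS clone and of 2 'rNetrin-1-derived' iPS clones, called clone 1 and clone 2. The 2 remaining libraries, Oct4-GFP mouse embryonic fibroblasts (MEFs) at passages 2 and 4, are shown beside them as the cells of origin. All samples are labelled as an mf1 by 129 cross. The labels describe reprogramming of Oct4-GFP MEFs with retroviruses for Oct4, Sox2, Klf4 and c-Myc, growth of the iPS lines in KSR+LIF medium and growth of MEFs in DMEM with 10% FCS. The study's methods name KSR+LIF with or without kinase inhibitors, and gelatin or irradiated MEF below the cells, without saying which applied to the pre-iPS libraries, so that a difference in culture and the difference in state cannot be told apart, which bears on the Wnt, FGF and LIF lists among others. The rNetrin-1-derived clones differ from control by recombinant Netrin-1 given during derivation. The pre-iPS group is 1 line sampled at 2 passages, and so is each iPS line. The p-values below therefore measure the spread between passages of a line, not between independently derived pre-iPS lines.

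Retroviral reprogramming normally runs through loss of the fibroblast program and gain of an epithelial one, followed by activation of the endogenous pluripotency network and silencing of the viral transgenes. Naive pluripotency regulators such as Nanog and Esrrb, the de novo DNA methylation machinery and a group of embryo and germline genes under promoter methylation are late events in this sequence. According to the study, its pre-iPS cells fail to activate the Oct4-GFP locus and keep their transgenes on. The comparison asks which programs were off, and which were on, in that state.

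Values are edgeR pseudo-counts, that is read counts per gene scaled to a common library size. In the 8 pre-iPS and iPS libraries 1 read is worth 0.888 to 1.04. Reads were not recovered for the 2 MEF libraries, whose values include fractions of a read, such as 0.0226 and 1.05 for Dppa3. The closeness of the 2 MEF values of a gene is therefore no measure of spread between MEF samples. The 8 libraries held 38110410 to 46357031 reads on genes. Below, pre-iPS values are given for passage 5 and then passage 25, and iPS values as the lowest, highest and median of 6 libraries. Log2 fold changes are those of limma on log2(value + 1), pre-iPS less the mean of the 3 iPS lines, with their standard error. A gene was called, or passed, when its Benjamini-Hochberg adjusted p was under 0.05 and its log2 fold change was at least 1 in either direction. In bulk RNA, fewer cells that express a gene and less RNA per cell cannot be told apart.

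The labels were checked against marker genes. Epithelial Cdh1, the cadherin of pluripotent colonies, stood at 16538 and 15883 in pre-iPS, 14659 to 23289.8 (median 19467) in iPS and 98.8 and 83.6 in MEF. The summed value of 44 fibroblast and mesenchymal genes in pre-iPS was 3.88% to 3.97% of its MEF mean, within the 2.54% to 4.24% of the iPS libraries. Macrophage and blood markers were mixed. Lyz2, C1qb and Tyrobp were at 5.10 or less in both pre-iPS libraries, and C1qb and Tyrobp were at 0. Cd68 stood at 1565 and 853 in pre-iPS, 354 to 1124 in iPS and 767 and 715 in MEF, and was not called. Laptm5, at 4719 and 4711 in pre-iPS, was called higher. Genes of the Y chromosome separated the lines: Ddx3y stood at 1.02 and 1.92 in pre-iPS and 1.98 and 0.887 in clone 2, against 1478 to 1785 in control and clone 1. The X-inactivation transcript Xist was high in pre-iPS and clone 2 (16030 to 22076) and at 144 to 317 in control and clone 1. All 8 Y-linked genes tested were called lower. X-linked genes had a median log2 fold change of -0.08 over 626 genes. By line the median was -0.045 against control, -0.003 against clone 1 and -0.21 against clone 2, the iPS line with high Xist. Of the 626 genes, 26.4% were called, and how far the X-linked calls follow the difference in Xist was not tested.

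Of 16707 genes tested, 2653 were called, which is 15.9% of all genes: 770 higher in pre-iPS (4.61%) and 1883 lower (11.3%). The median over all genes was 0.00. The lower genes also changed by more, since 585 of them fell at least 8-fold on the fitted scale and 63 higher genes rose by as much. Both pre-iPS libraries lay outside the range of all 6 iPS libraries for 2499 of the 2653 called genes, and for 42.4% of all genes tested. Called in the same direction against each of the 3 iPS lines were 1440 genes (8.62%), 338 higher and 1102 lower. The counts per line were 2808 against control, 1878 against clone 1 and 2489 against clone 2; the 3 contrasts share the pre-iPS libraries. When each line was taken as 1 unit, with its passages averaged, 872 genes (5.22%) were called, 869 of them called in the same direction above. Under quantile normalization the split moved to 1182 higher and 1257 lower, so that 51.5% of calls were lower instead of 71.0%.

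Most of the lower genes were also lower in MEF than in iPS. Of the 1883 genes lower in pre-iPS, 1299 (68.99%) had a MEF mean of at most 50% of the iPS mean, and the other 584 stood below both cell types. The 1299 include genes that MEFs expressed above pre-iPS, such as Ddx4 (mean 162 in MEF and 17.6 in pre-iPS). Of the 770 higher genes, 218 (28.3%) had a MEF mean of at least 50% of the pre-iPS mean and so stayed on by this measure, while the other 552 (71.7%) had a lower MEF mean. The second class says nothing of the iPS level and holds genes that iPS cells express strongly, such as Pou5f1. The number of genes with a value of 0 was 872 and 875 in the pre-iPS libraries and 284 to 433 in the iPS libraries. Among the lower genes, 799 were under 10 in both pre-iPS libraries and 121 had no read in either. For such genes the fitted change depends on the pseudocount.

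**Figure D1:**
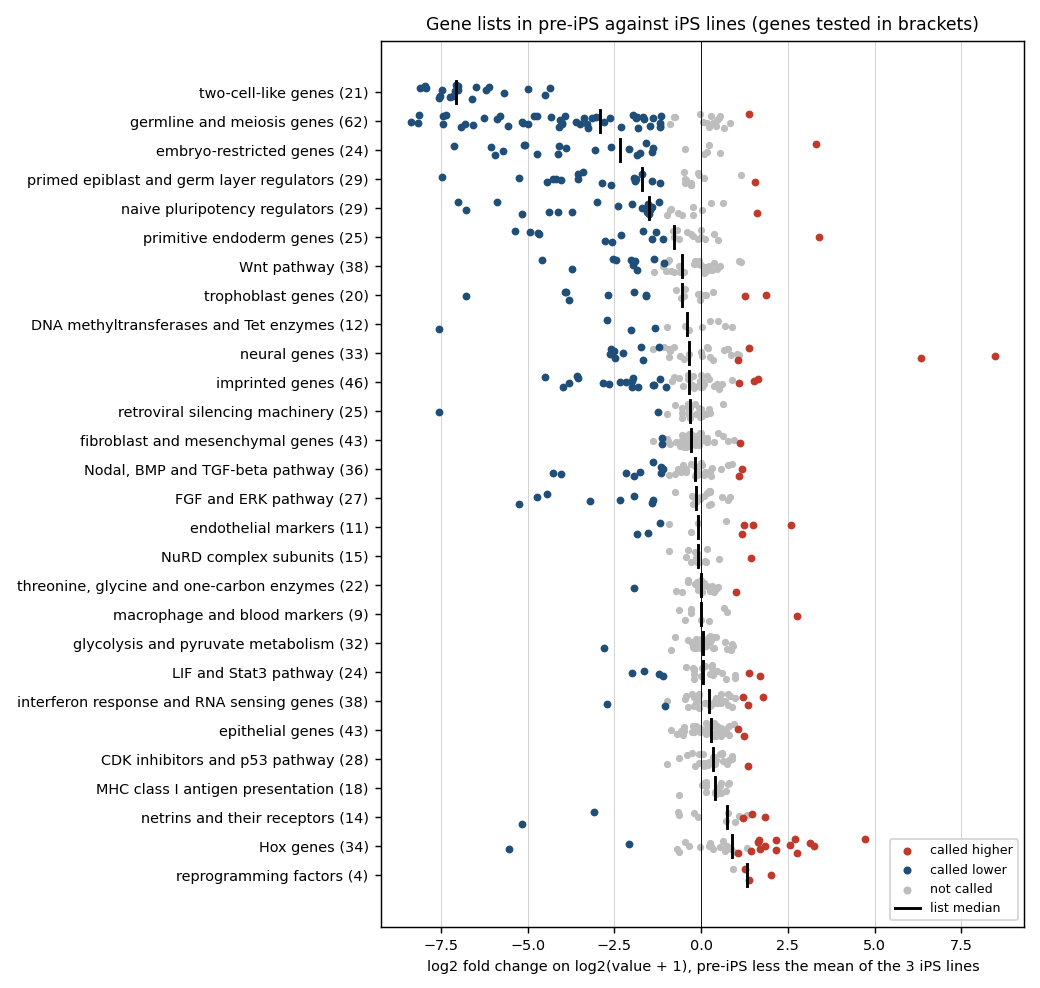
Log2 fold change of each tested member (points, red called higher, blue called lower, grey not called) and median (black bar) for 28 gene lists, pre-iPS less the mean of the 3 iPS lines. The two-cell-like, germline, embryo-restricted, primed and naive lists lie mostly to the left, and the Hox and reprogramming factor lists to the right.

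The 4 reprogramming factors were all above the iPS range, while 42.4% of all genes tested lay outside it on either side. Of the 4, 3 were called higher (75%, against 4.61% of all genes). Pou5f1, which encodes Oct4, stood at 392944 and 415437 in pre-iPS and at 91002 to 110018 (median 99604) in iPS, a log2 fold change of 2.02 ± 0.10, adjusted p = 1.8e-05. Klf4 (101113 and 121484 against 28768 to 66644 (median 44894)) rose by 1.38 on the log2 scale, and Myc (126813 and 139917 against 44613 to 88309.6 (median 50129)) by 1.25. Sox2 stood at 18529 and 21950.5 against 8304 to 14832 (median 10304); its log2 fold change of 0.93 ± 0.13, adjusted p = 0.0016 was below the size needed for a call. Reads of the retroviral copy and of the endogenous gene cannot be separated in these values. With each line as 1 unit, Pou5f1 alone of the 4 was called.

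The naive regulators differed from Pou5f1. Of 29 naive pluripotency regulators tested, 18 were lower (62.1%, against 11.3% of all genes), 1 was higher (3.45%, against 4.61%) and 10 did not pass, with a median log2 fold change of -1.5. Of the 18 lower genes, 17 had a MEF mean of at most 50% of the iPS mean. The RNA-binding protein Lin28a, a blocker of let-7 maturation, showed the largest difference. It stood at 55.1 and 49.9 in pre-iPS and 4809 to 9516 (median 6596) in iPS (log2 fold change -7.02 ± 0.14, adjusted p = 1.5e-06). Its paralogue Lin28b was at 1305 and 1853 in pre-iPS, inside or near an iPS range of 1560.1 to 2465, and did not pass (-0.23, adjusted p = 0.36). The homeodomain factor Nanog stood at 311 and 349 against 2489 to 7441 (median 4450.3), a log2 fold change of -3.74 ± 0.17, adjusted p = 1.3e-05. For the orphan nuclear receptor Esrrb the values were 31.6 and 15.4 against 900.2 to 7387 (median 2286), with MEFs at 16.5 and 13.8 (-6.78 ± 0.36, adjusted p = 2e-05). Pre-iPS cells thus held Esrrb at about the MEF level and Nanog above it, MEFs being at 34.5 and 36.9.

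Also lower were the transcriptional regulators Prdm14 (14.3 and 7.68 against 84.2 to 615) and Foxd3 (3.06 and 7.68 against 129 to 306), and the Akt co-activator Tcl1 (4.08 and 1.92 against 55.4 to 961). Smaller decreases were called for Sall4 (-2.39), Klf2 (-1.56), Tbx3 (-1.52), Tfcp2l1 (-1.23) and Utf1 (-1.72). Several members did not pass. Zfp42, the widely used marker Rex1, stood at 6512 and 6101 in pre-iPS, inside the iPS range of 2109 to 15153 and far above MEFs at 47.6 and 51.7. Gdf3 and Fgf4 were likewise expressed at 2568 and 2526 and at 2409 and 2598, with no call. Nr0b1, the X-linked nuclear receptor Dax1, was the one higher member (1393 and 3619.8 against 349 to 1290.4 (median 689); 1.6, adjusted p = 0.028). With each line as 1 unit, 10 of the 19 calls remained, and that of Nr0b1 was not among them. Against single lines, Nr0b1 was called for clone 1 but not for control or clone 2.

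**Figure D2:**
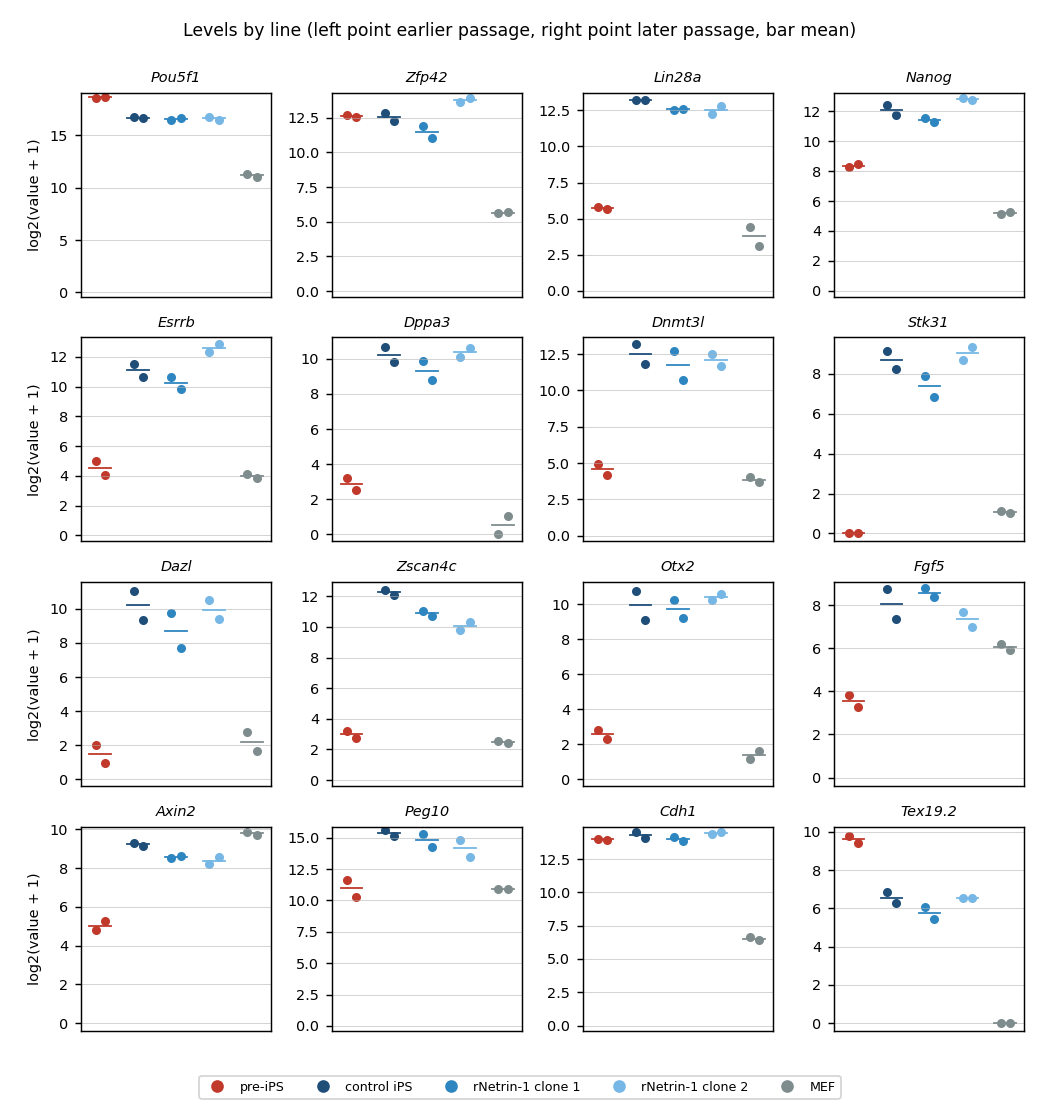
Values of 16 genes on log2(value + 1) in each library, by line (left point earlier passage, right point later, bar mean of 2). Pou5f1 and Tex19.2 are highest in pre-iPS, Zfp42 and Cdh1 are at iPS levels, and the other genes are below every iPS library.

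Among 24 embryo-restricted genes, which are transcribed in oocytes, preimplantation embryos and pluripotent cells, 18 were lower, all 18 low in MEF too, and 1 was higher (median -2.35). Dppa3, a maternal factor that protects methylation marks in the zygote, stood at 8.16 and 4.8 against 436 to 1646 (median 1027) (-7.11 ± 0.37, adjusted p = 1.9e-05). The paired chromatin factors Dppa2 and Dppa4 stood at 145 and 163 against 1339.5 to 4583 and at 72.4 and 74.9 against 1193 to 4016. Calcoco2, an autophagy receptor, was at 11.2 and 13.4 against 248 to 1856. The oocyte gene Ooep (-4.09) and the homeobox gene Rhox9 (-5.72) were lower too.

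The single higher gene of that list, Tex19.2, went the other way. It stood at 874 and 697 in pre-iPS, 42.1 to 116 (median 85.1) in iPS and at 0 in both MEF libraries (3.31 ± 0.25, adjusted p = 0.00011). Its close relative Tex19.1 did not pass (3529 and 2759 against 1498 to 4083), and neither did L1td1 (17982 and 14438 against 11871 to 20357) or Eras (453 and 686 against 170.4 to 787). Of the 19 called genes, 10 remained with each line as 1 unit.

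Two-cell-like genes, which a small and changing fraction of pluripotent cells transcribes, were at or near the floor. All 21 tested were lower, against 11.3% of all genes, with a median of -7.06, and 20 of them also with each line as 1 unit. Their summed value was 257 and 283 in the pre-iPS libraries, 12031 to 70684 in the iPS libraries and 79.6 to 109.9 in MEF. Zscan4c, which acts at telomeres in these cells, stood at 8.16 and 5.76 in pre-iPS. It stood at 5472 and 4342 in control, 2143 and 1698 in clone 1 and 892 and 1276 in clone 2. Every iPS library was thus above both pre-iPS libraries, and the iPS lines differed among themselves. Tmem92 (13.3 and 7.68 against 866 to 3855) and Tcstv3 (8.16 and 7.68 against 529.6 to 3779.9) had the same order. Copies of Zscan4, Usp17l and Tcstv are near-identical, and how reads were divided among them is uncertain.

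Germline and meiosis genes were the list with the most lower members. Of 62 tested, 45 were lower (72.6%, against 11.3% of all genes) and 1 higher (1.61%, against 4.61%), with a median log2 fold change of -2.91. Of the 45, 43 had a MEF mean of at most 50% of the iPS mean. Many genes of this kind carry promoters that are methylated in somatic cells and are bound at E-box or E2F6 motifs by repressors. The bases upstream of the start of 5 genes are shown, because they hold or lack these letters; Dazl, Ddx4, Mael and Stk31 were lower and Tdrd1 was higher. They are the 250 bases before the RefSeq start on GRCm38.p6 (mm10), the first start listed where there are several, 5′ to 3′ on the gene's strand. Capitals mark CACGTG (E-box, a palindrome) and GGCGGGAA (E2F6-like, both strands), which do not overlap here; ATGCAAAT, the octamer, was also searched on both strands.
Stk31 (chr6:49395289-49395538, plus strand): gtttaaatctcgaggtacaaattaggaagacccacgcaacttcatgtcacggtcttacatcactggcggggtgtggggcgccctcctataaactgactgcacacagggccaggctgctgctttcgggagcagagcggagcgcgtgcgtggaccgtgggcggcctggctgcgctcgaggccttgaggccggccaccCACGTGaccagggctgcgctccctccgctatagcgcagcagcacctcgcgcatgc
Mael (chr1:166238745-166238994, minus strand): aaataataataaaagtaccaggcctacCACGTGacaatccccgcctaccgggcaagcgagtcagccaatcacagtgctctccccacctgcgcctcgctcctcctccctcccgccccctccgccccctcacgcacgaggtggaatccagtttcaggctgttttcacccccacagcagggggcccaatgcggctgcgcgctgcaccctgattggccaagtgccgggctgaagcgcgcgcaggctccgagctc
Ddx4 (chr13:112652311-112652560, minus strand): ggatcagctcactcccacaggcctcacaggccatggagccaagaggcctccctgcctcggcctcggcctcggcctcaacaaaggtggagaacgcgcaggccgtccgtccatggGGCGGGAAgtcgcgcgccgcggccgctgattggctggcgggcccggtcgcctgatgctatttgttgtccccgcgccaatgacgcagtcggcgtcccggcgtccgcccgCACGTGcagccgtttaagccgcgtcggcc
Dazl (chr17:50293621-50293870, minus strand): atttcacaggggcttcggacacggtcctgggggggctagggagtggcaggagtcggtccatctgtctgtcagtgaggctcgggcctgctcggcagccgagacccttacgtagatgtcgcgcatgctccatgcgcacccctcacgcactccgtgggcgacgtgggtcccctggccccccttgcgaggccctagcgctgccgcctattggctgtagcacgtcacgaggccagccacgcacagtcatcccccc
Tdrd1 (chr19:56825959-56826208, plus strand): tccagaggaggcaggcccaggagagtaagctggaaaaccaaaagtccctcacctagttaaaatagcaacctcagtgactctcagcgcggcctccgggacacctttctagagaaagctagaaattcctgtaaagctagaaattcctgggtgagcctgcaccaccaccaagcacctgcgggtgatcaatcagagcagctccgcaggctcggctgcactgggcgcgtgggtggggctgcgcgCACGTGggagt

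Counted from its first base, the E-box lies 55 bases before the start of Stk31, 223 before that of Mael, 29 before that of Ddx4 and 11 before that of Tdrd1. Ddx4 also has the E2F6-like letters 137 bases before its start, and Dazl has none of the searched motifs. Over the germline list, 55 of 62 tested genes had a promoter in the table, and 19 of these (34.5%) held CACGTG, against 8.0% of 12796 tested genes with a promoter and 6.05% of all 27025 promoters in the table. GGCGGGAA was found in 12.7% of the list's promoters, in 3.24% of those of tested genes and in 1.88% of all. The octamer was in none of the 55, against 1.41% of tested genes and 1.61% of all. Among the list's lower genes, 16 of 41 promoters (39.02%) held CACGTG. A match of letters is a description and no evidence of binding.

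Stk31, a germ cell kinase-like protein with a Tudor domain, had no read in either pre-iPS library and 115 to 657 (median 360.1) in iPS. With 3 reads over both pre-iPS libraries as the floor, it was at least 259-fold lower. The RNA-binding germ cell regulator Dazl stood at 3.06 and 0.957 against 204 to 2133 (median 759), a fitted log2 fold change of -8.12 ± 0.66, adjusted p = 0.00015. Mael, a piRNA pathway protein, stood at 3.06 and 1.92 against 325 to 1063 (median 615) (-7.35 ± 0.37, adjusted p = 1.8e-05). Ddx4, the germ cell helicase Vasa, was at 12.2 and 23 in pre-iPS, 232 to 884 (median 485) in iPS and 156 and 169 in MEF, so that it was below both (-4.74 ± 0.42, adjusted p = 0.00021). X-linked Usp26, a testis deubiquitinase, was at 1.02 and 4.8 against 508 to 2029 (median 1114). None of these genes had an iPS library that reached down to the pre-iPS values.

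Meiotic chromosome proteins followed, among them the synaptonemal complex proteins Sycp1 (-5.15) and Sycp3 (-5.89), Hormad1 (-6.80) and the recombinase Dmc1 (-4.83). The retinoic acid target Stra8 stood at 87.7 and 141 against 1020.3 to 5636 (median 1528) (-4.09, adjusted p = 0.00093). Tdrd1, a Tudor protein of the piRNA pathway, went the other way, at 788 and 315 in pre-iPS against 144 to 244 (median 179) in iPS (1.38, adjusted p = 0.018), with the passage 5 value the higher. Piwil2 (2459.6 and 2041 against 757 to 2464), Mov10l1 (1033 and 958 against 418 to 919) and Ccnb1ip1 (1538 and 1424 against 1144 to 1476) were expressed in pre-iPS cells and did not pass. With each line as 1 unit, 27 of the 46 calls remained.

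The enzymes of DNA methylation differed by member. Dnmt3l, the catalytically inactive partner of the de novo enzymes, stood at 29.6 and 17.3 in pre-iPS, 1662 to 9247 (median 4762) in iPS and 15.2 and 11.7 in MEF (-7.55 ± 0.58, adjusted p = 0.00011). The de novo enzymes were lower as well, Dnmt3b at 1487 and 1462 against 7406 to 14993 (median 9432) (-2.72 ± 0.15, adjusted p = 2.5e-05) and Dnmt3a at 3008 and 3050.5 against 5147 to 9895 (median 7746) (-1.32 ± 0.16, adjusted p = 0.00088). Tet1, which oxidises methylcytosine, was at 1262 and 2313 against 4577 to 12105 (median 6893) (-2.02 ± 0.27, adjusted p = 0.0015). The maintenance enzyme Dnmt1 did not pass (16223 and 21470.4 against 14589 to 20194), nor did Tet2, Tet3 or the Dnmt1 cofactor Uhrf1. In all, 4 of 12 genes were called, each lower (33.3%, against 11.3% of all genes).

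The machinery that silences retroviruses was nearly all expressed. Of 25 genes tested, 2 were lower (8%, against 11.3% of all genes). They were Dnmt3l and the helicase Hells (3416 and 3194 against 5737 to 9846, log2 fold change -1.24), and the list median was -0.32. Trim28, the co-repressor KAP1, stood at 22984 and 22293 against 34295 to 57801 (median 44221), below all iPS libraries, with a log2 fold change of -0.98 ± 0.12, adjusted p = 0.0011 that misses the size for a call. Its zinc finger partner Zfp809 stood at 588 and 599 against 735 to 1557 (-0.74, adjusted p = 0.0063), and the H3K9 methyltransferase Setdb1 at 4699.9 and 4343 against 4678 to 5377 (-0.16, adjusted p = 0.14). Of 15 subunits of the nucleosome remodelling complex NuRD, 1 was called (6.67%, against 15.9% of all genes). It was Chd3, higher at 11216 and 12661 against 3560.2 to 5369 (median 4424) and 23093 and 22991 in MEF (1.43 ± 0.11, adjusted p = 0.00011). Mbd3 (-0.13, adjusted p = 0.2), Mta1 (0.15, adjusted p = 0.38) and Chd4 (-0.18, adjusted p = 0.073) did not pass.

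Imprinted genes, expressed from a single parental copy, were lower in 17 of 46 cases (36.96%, against 11.3% of all genes) and higher in 3 (6.52%, against 4.61%). Peg10, a retrotransposon-derived placental gene, stood at 3186 and 1241 against 11204 to 49574 (median 33289.9) (-3.82 ± 0.48, adjusted p = 0.001), and Zdbf2 at 185 and 195 against 1588 to 3176 (median 2255) (-3.59 ± 0.12, adjusted p = 5.7e-06). Magel2 (5.1 and 4.8 against 40.7 to 336), Mest (-2.65) and H19 (-2.17) were lower too. The Dlk1-Dio3 transcripts did not separate pre-iPS from every line. Meg3 stood at 3643 and 1736 in pre-iPS, 7438 and 10322 in control, 1397 and 2651 in clone 1 and 10360.2 and 11414 in clone 2, and Mirg at 91.8 and 37.4, 466 and 661, 68.4 and 157 and 458 and 498, so that clone 1 overlapped pre-iPS for both. The higher genes were Ndn (1.09), Slc22a18 (1.53) and Ddc (1.65). Of the 20 calls, 8 remained with each line as 1 unit, and 11 imprinted genes were lower when the passage 25 pre-iPS library was left out.

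Regulators of the next developmental step were lower as well. Of 29 primed epiblast and germ layer genes, 17 were lower (58.6%, against 11.3% of all genes) and 1 was higher (3.45%, against 4.61%), with a median of -1.72. Otx2, a driver of the primed state, stood at 6.12 and 3.84 against 551 to 1748 (median 1199.9) (-7.47 ± 0.45, adjusted p = 3.9e-05), and the epiblast growth factor Fgf5 at 13.3 and 8.64 against 127 to 442 (median 268), with MEFs at 72.8 and 59.3 (-4.45 ± 0.39, adjusted p = 0.00022). Pou3f1, the epiblast and neural factor Oct6, was at 115 and 71 against 791 to 3032 (-4.20). Sox3 (-3.40) and Foxa2 (-3.56) were also lower. The mesoderm gene Mesp1 was the higher one, at low values (16.3 and 12.5 against 1.93 to 6.26).

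Extraembryonic lists were mixed. Primitive endoderm genes were lower in 11 of 25 cases (44%, against 11.3% of all genes), led by Sox17 (2.04 and 0 against 29.6 to 171) and Hnf4a (0 and 0.957 against 15.4 to 173), whereas Gata6 stood inside the iPS range (162 and 176 against 85.3 to 364). Their count was 6 without the passage 25 pre-iPS library. Srgn, a secretory granule proteoglycan placed in that list, was higher at 5294 and 3204 against 117 to 1054 (3.39, adjusted p = 0.0047). Among 20 trophoblast genes, 8 were lower (40%, against 11.3% of all genes) and 2 higher (10%, against 4.61%). The lower ones included Esrrb and Hand1 (7.14 and 1.92 against 22.4 to 179). Elf5 (1039 and 739 against 134 to 434) and Tead4 (3927 and 4449 against 1185 to 2406) were higher, and Cdx2 was near the floor in all (16.3 and 12.5 against 5.37 to 19.5). Neural genes counted 8 lower (24.2%) and 4 higher (12.1%) of 33, against 11.3% and 4.61% of all genes. Under quantile normalization 4 neural genes were lower. Pax6, Sox1 and Nes did not pass.

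In the Wnt pathway 10 of 38 genes were lower (26.3%, against 11.3% of all genes). Axin2, a direct target and inhibitor, stood at 26.5 and 37.4 in pre-iPS, 295 to 638 (median 390.2) in iPS and 935 and 845 in MEF (-3.72 ± 0.19, adjusted p = 1.9e-05). The HMG-box effectors Lef1 (24.5 and 17.3 against 237 to 1154; -4.58, adjusted p = 0.0011) and Tcf7 (289 and 247 against 1172 to 2048; -2.53, adjusted p = 0.00014) were lower, as was the receptor Fzd7 (-1.98). Of the 10 lower Wnt genes, 7 stood below both iPS and MEF.

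In the Nodal, BMP and TGF-beta group 9 of 36 were lower (25%, against 11.3% of all genes) and 2 higher (5.56%, against 4.61%). The ligand Nodal stood at 363 and 374 against 1012 to 2063 (median 1513) (-1.94 ± 0.15, adjusted p = 0.0001), and its inhibitors Lefty1 (99.98 and 244 against 1432 to 6435) and Lefty2 (69.4 and 188 against 1261 to 3562) were lower, with log2 fold changes of -4.28 and -4.04. The TGF-beta co-receptor Eng was higher (4961 and 4746 against 1134 to 3105). Its log2 fold change was 2.07 against control, 0.68 against clone 1 and 0.75 against clone 2, and it was not called with each line as 1 unit. In the FGF and ERK group 8 of 27 were lower (29.6%, against 11.3% of all genes), with Fgf8 (2.04 and 0 against 24.8 to 164), Fgf17 (7.14 and 3.84 against 138 to 264) and the receptor Fgfr2 (197 and 239 against 649 to 967) among them. That count was 5 without the passage 5 pre-iPS library. Fgf4 and Fgfr1 did not pass.

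The LIF and Stat3 group, a pathway of self-renewal in mouse pluripotent cells, counted 2 higher (8.33%) and 4 lower (16.7%) of 24, against 4.61% and 11.3% of all genes. Osmr, the oncostatin M receptor, stood at 4762 and 4823 in pre-iPS, 1179.7 to 1799 (median 1512) in iPS and 13538 and 13611 in MEF (1.71 ± 0.09, adjusted p = 2e-05). The other higher gene was Klf4, whose retroviral and endogenous reads cannot be separated. The receptor chain Lifr (0.96, adjusted p = 0.003) and Stat3 itself (0.59, adjusted p = 0.0035) lay above all iPS libraries without reaching the size for a call. The Stat3 targets Gbx2 (333 and 357 against 904 to 2172) and Pim1 (655 and 818 against 1738 to 3109) were lower.

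Among the higher genes, the largest rise was that of Npy2r, a neuropeptide Y receptor (chromosome 3, 82538383 to 82548084 on mm10), which stood at 713 and 722 in pre-iPS, 0 to 2.97 (median 1.4) in iPS and 17.8 and 19 in MEF (8.48 ± 0.55, adjusted p = 5.1e-05). Opcml, a GPI-anchored adhesion molecule of neurons, followed at 715 and 410.0 against 4.18 to 9.67 (median 5.16) and 10.7 and 11.6 in MEF (6.33 ± 0.39, adjusted p = 4.4e-05). Both were thus near the floor in fibroblasts and iPS cells alike. Ube2ql1, a ubiquitin-conjugating enzyme-like protein, was at 1657 and 1715 against 39.9 to 79.7 (4.82, adjusted p = 1.8e-05), and Mzb1, an endoplasmic reticulum protein known from B cells, at 5169 and 4497 against 47.2 to 521 (5.03, adjusted p = 1.3e-05). The calcitonin gene-related peptide gene Calcb (202 and 99.9 against 2.9 to 9.76) and Gm1110 (234 and 127 against 1.03 to 15.9) completed the leading genes that were low in MEF. Of these genes Mzb1 was not low in every iPS line, at 521 and 400 in clone 2 against 12.8 and 7.46 in MEF. Mzb1 and Gm1110 were not called with each line as 1 unit.

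Other leading genes were expressed in MEF as well. Serpina3n, a secreted protease inhibitor, stood at 2264 and 3371 in pre-iPS, 17.4 to 60.5 (median 43.4) in iPS and 7455 and 7525 in MEF (6.13 ± 0.32, adjusted p = 2e-05), that is below MEF and far above iPS. Lrrc32, which displays latent TGF-beta at the cell surface, stood at 6781 and 6530.1 in pre-iPS, 78 to 361 in iPS and 16566 and 15909 in MEF (4.94, adjusted p = 4e-05). The zinc finger factor Zic1 stood at 573 and 940.0, 15.1 to 68.8 and 1327 and 1344 (4.51, adjusted p = 0.001). The 3 genes had the order MEF, pre-iPS, iPS. Lower genes chosen by the same measure were, beside Stk31, Usp26, Dazl and 2 Zscan4 copies, the X-linked Rhox13, Mageb16 and 1700013H16Rik, and Usp17lc and Gm8300, each at 3.84 or less in both pre-iPS libraries and at 199.8 or more in all iPS libraries.

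**Figure D3:**
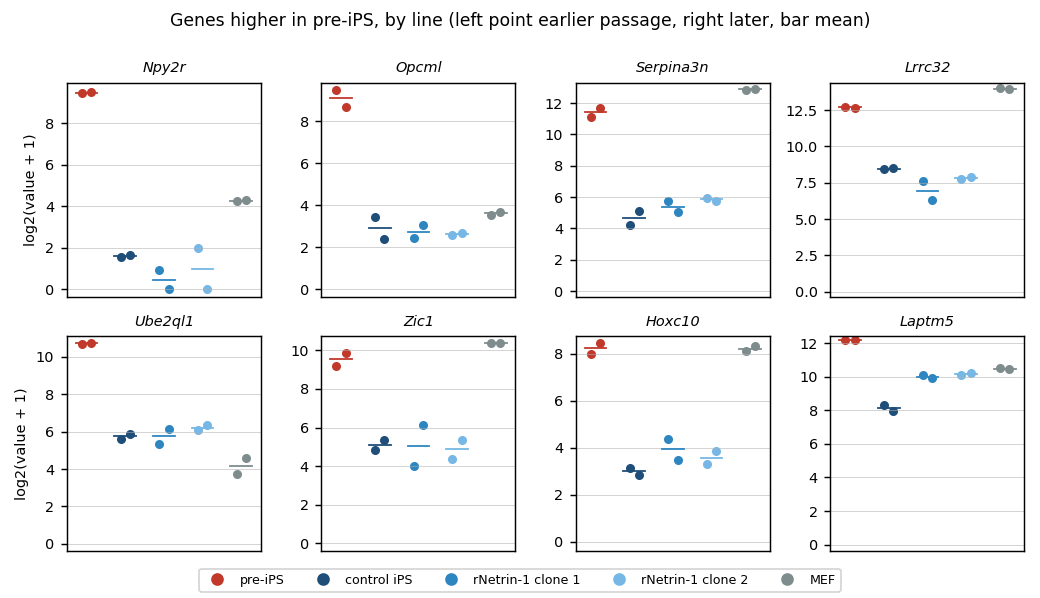
Values of 8 genes higher in pre-iPS on log2(value + 1) in each library, by line (left point earlier passage, right point later, bar mean of 2). Npy2r, Opcml and Ube2ql1 are low in MEF, while Serpina3n, Lrrc32, Zic1 and Hoxc10 are as high or higher there.

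Hox genes, which record position along the body axis in fibroblasts, were the list with most genes still on. Of 34 tested, 14 were higher (41.2%, against 4.61% of all genes) and 2 were lower (5.88%, against 11.3%), with a median of 0.90. In MEF, 13 of the 14 were on at 50% or more of the pre-iPS level, as were 28.3% of all higher genes. Hoxc10 stood at 253 and 349 in pre-iPS, 6.26 to 19.5 (median 9.6) in iPS and 274 and 318 in MEF, so that pre-iPS and MEF overlapped (4.72 ± 0.34, adjusted p = 8.4e-05). Hoxb7 (263 and 290.0 against 19.8 to 61.5, MEF 326 and 345) and Hoxd9 (164 and 142 against 8.7 to 53.3, MEF 283 and 231) had the same pattern. Hoxd4 (2.57), Hoxd8 (2.16), Hoxc6 (1.83) and Hoxc4 (1.67) rose as well.

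The pattern did not cover all genes. Hoxb13 was higher in pre-iPS (162 and 133 against 12.5 to 32.8) and at 1.15 and 0.00744 in MEF, the exception among the 14. Hoxd11 and Hoxd12, which MEFs express at 671 and 657 and at 384 and 380.0, were at 0 in both pre-iPS libraries. Hoxb1, an early retinoic acid target, was lower (8.16 and 2.88 against 59.5 to 2014 (median 317); -5.53, adjusted p = 0.002). Its iPS values ran from 59.5 and 181 in clone 2 to 495 and 2014 in control. The library kit does not mark strand, so Hox reads cannot be told from those of antisense transcripts, and with each line as 1 unit 6 of the 16 calls remained.

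**Figure D4:**
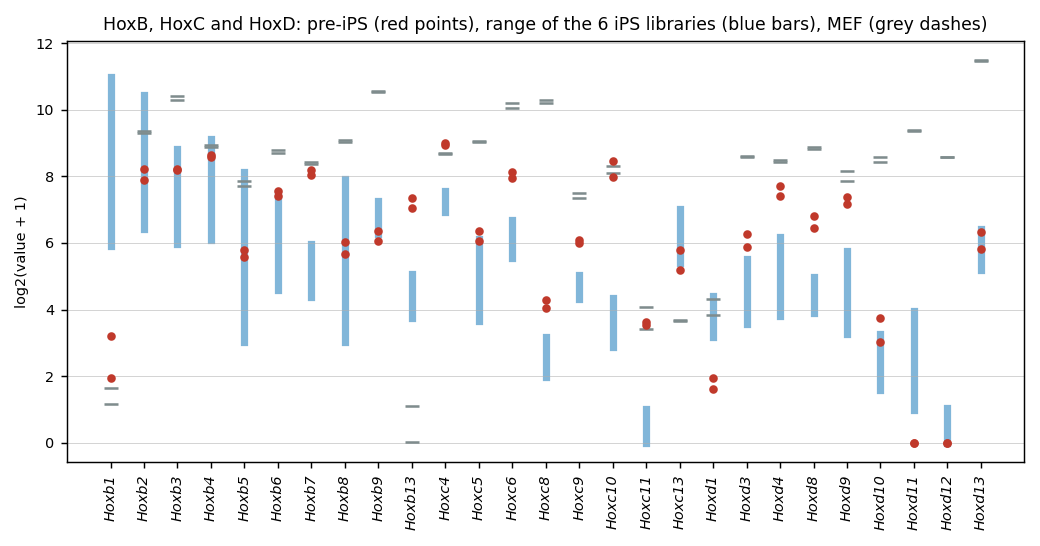
Genes of the HoxB, HoxC and HoxD clusters on log2(value + 1): pre-iPS libraries (red points), range of the 6 iPS libraries (blue bars) and MEF libraries (grey dashes). Pre-iPS points lie above the blue bar for Hoxb7, Hoxb13, Hoxc4, Hoxc6, Hoxc8 to Hoxc11, Hoxd3, Hoxd4, Hoxd8 and Hoxd9.

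Some genes known from blood and vessel cells were among the higher ones. Laptm5, a lysosomal protein of haematopoietic cells, stood at 4719 and 4711 against 245 to 1208 (median 1029.8) and 1457 and 1425 in MEF (2.77 ± 0.12, adjusted p = 1.3e-05). It was the single call among 9 macrophage and blood markers tested of 17 measured (11.1%, against 15.9% of all genes). The leukocyte marker Ptprc was at 8.16 and 4.8 in pre-iPS, and Emr1, Tyrobp, C1qb and C1qc were at 0 in both libraries. The summed value of that list was 7038 and 6177 in pre-iPS, 1257 to 3006 in iPS and 19957 to 20187 in MEF. Most of the pre-iPS sum was Laptm5 itself, and much of the rest was Cd68 (1565 and 853), which was not called. Among 11 endothelial markers 4 were higher (36.4%) and 3 lower (27.3%), against 4.61% and 11.3% of all genes. The tight junction gene Cldn5 (1259 and 669 against 109.8 to 222, log2 fold change 2.58, adjusted p = 0.00082) and the angiopoietin receptor Tek (1975 and 2549 against 797 to 1368, log2 fold change 1.23, adjusted p = 0.0028) rose, while Cdh5 (26.5 and 36.5 against 63.6 to 159.5) and Pecam1 (196 and 558 against 373 to 2948) fell. The 3 lower calls were 0 without the passage 5 pre-iPS library.

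Several programs were close to their iPS level, at call shares below the 15.9% of all genes. Of 43 epithelial genes 2 were called, both higher, and Epcam stood at 8505 and 8052 in pre-iPS, 7848 to 10463 in iPS and 35.1 and 26.5 in MEF. Of 43 fibroblast genes 1 was higher, Cd44 (17195 and 17519 against 6108 to 11957), and 2 were lower, Thbs1 and Lox. The Lox call rested on clone 1, at 10189 and 8228. Lox stood at 1240 and 669 in pre-iPS, 936 and 637 in control and 1347 and 877 in clone 2. Col1a1 stood at 6071 and 5254 in pre-iPS, 5264 to 11894 in iPS and 1237803 and 1145592 in MEF. In glycolysis 1 of 32 genes was called, the neuronal-type glucose transporter Slc2a3, at 6056 and 5063 against 29183 to 50741 (median 37434) (-2.80 ± 0.22, adjusted p = 0.00012). In threonine, glycine and one-carbon metabolism 2 of 22 were called, with Gldc, the glycine decarboxylase, lower (1149.7 and 1868 against 4091 to 8265; -1.93, adjusted p = 0.0014), Mtr higher (1.00), and Tdh at 4744 and 5782 against 2895 to 6109.

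Interferon response and RNA sensing genes counted 3 higher and 2 lower of 38 (13.2% called, near the 15.9% of all genes), with Dhx58 (1433 and 1059 against 221 to 585) and Oas2 (6067 and 5702 against 1269 to 3465) higher and Ifitm1 (581 and 239 against 1376 to 3968) lower. None of 18 MHC class I genes passed by limma, with a median of 0.40; 6 of them had an unadjusted p under 0.05, and edgeR and DESeq2 each called 0. Of 28 CDK inhibitor and p53 pathway genes 1 was called (3.57%, against 15.9% of all genes), Trp63 (89.8 and 77.8 against 15.9 to 59.95). Cdkn2a, the Ink4a and Arf locus, stood at 5434 and 4991 against 2394 to 4376 (median 3064), above all iPS libraries, with a log2 fold change of 0.76 ± 0.16, adjusted p = 0.0098 under the size for a call.

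In the netrin system, the subject of the study, single genes of both the ligand and the receptor side were called. Netrin-1 is a secreted guidance cue, and Dcc and the Unc5 proteins are receptors known to trigger apoptosis when unbound. Ntn1 stood at 11258 and 12274 in pre-iPS, 3727 and 5175 in control, 5159 and 6205 in clone 1, 6601 and 4473 in clone 2 and 1056 and 1016 in MEF. Both pre-iPS values were above all 6 iPS values, a log2 fold change of 1.20 ± 0.18, adjusted p = 0.0022. Ntn4 (751 and 507 against 85.5 to 294; 1.84, adjusted p = 0.0047) and, at low values, Ntn5 (44.9 and 31.7 against 4.83 to 23.3; 1.46, adjusted p = 0.029) were higher too.

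Dcc was the most reduced member. It stood at 9.18 and 8.64 in pre-iPS, 924 and 773 in control, 306 and 312 in clone 1, 152 and 184 in clone 2 and 33.5 and 41.1 in MEF, below every other library (-5.16 ± 0.17, adjusted p = 5.7e-06). The receptor Unc5a was also lower, at few reads (6.12 and 1.92 against 21.3 to 70.8; -3.09, adjusted p = 0.0043). Unc5b (1722 and 1206 against 1706 to 2748; -0.65, adjusted p = 0.07) and Neo1 (1626 and 1572 against 2135 to 3196; -0.67, adjusted p = 0.011), which MEFs express at 17057 and 16805 and at 9089 and 9322, were not called. Unc5c (84.7 and 333 against 50.3 to 108; 1.08, adjusted p = 0.15) and Dscam (76.5 and 129 against 18.8 to 114; 1.32, adjusted p = 0.079) were called in the fit with passage as a replicate block, at adjusted p = 0.028 and 0.0032, and in both the passage 25 library was the higher. Unc5d, Ntn3, Ntng1, Ntng2 and Dscaml1 did not pass. In all, 3 of 14 genes were higher (21.4%, against 4.61% of all genes) and 2 lower (14.3%, near the 11.3% of all genes). With each line as 1 unit, 3 of the 5 calls remained, Ntn1, Dcc and Unc5a.

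**Figure D5:**
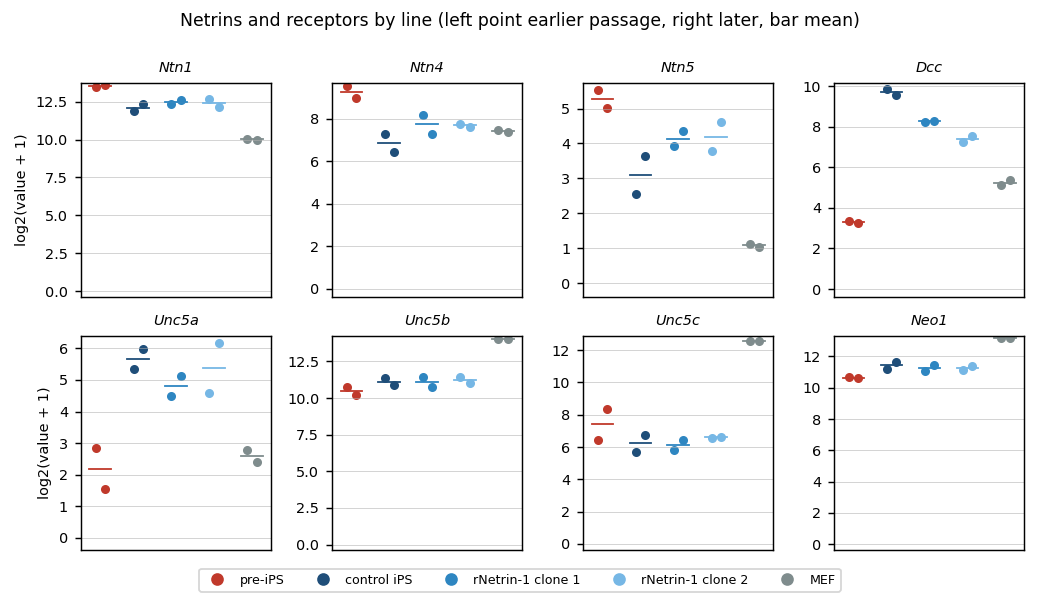
Netrins and receptors on log2(value + 1) in each library, by line (left point earlier passage, right point later, bar mean of 2). Ntn1, Ntn4 and Ntn5 lie above the 6 iPS libraries in pre-iPS, and Dcc and Unc5a below them.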

How the data were processed

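Per the labels, poly(A) RNA was made into unstranded TruSeq v2 libraries and read as single 50-base reads on a single lane; the submitters' notes list CASAVA 1.8.2, TopHat2 2.0.8b, HTSeq 0.5.3p9, edgeR and build mm10, and the deposited values are a signal, the edgeR pseudo-count per gene that the authors scaled to a common library size. In all 8 libraries every value was a whole number of reads (tolerance 0.1 read), which gave 38110410 to 46357031 reads on genes. Genes at 10 or more in at least 2 of the 8 libraries were tested (16707 of 18901) with limma 3.58.1 on log2(value + 1), with a mean per line and the trend option. In simulated counts 188 of 200 changed genes were recovered, with 9 false calls. The simulated iPS lines shared the same mean, and the changed genes had a mean of at least 50 reads and changes above the threshold. These figures therefore do not cover differences between iPS lines or genes near the floor. MEF libraries stayed out of the fit, because earlier work on these data found their spread far smaller than that of the other lines. Deviations of equal passages correlated in all 6 pairs of lines (r 0.244 to 0.537), so passage, which the labels give, pairs the libraries, and a fit with it as a replicate block was an alternative, beside edgeR 4.0.16 and DESeq2 1.42.0 on the recovered reads, other pseudocounts, filters and scalings, and leaving out each library or line. Genes were placed on GRCm38.p6 (GENCODE M21). The RefSeq table held a promoter for 76.59% of tested genes, so motif shares over them leave out the rest. Named were the 10 genes with the largest change in each direction (no overlap, mean of at least 100 in the higher group), the first 3 members and the 2 most changed called members of each direction in each of 28 lists, and all netrins and receptors; other list members were picked by their values, and some genes under this rule are not reported here. The lists and members were chosen with earlier results of these data known.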

Additional observations from a re-analysis of the deposited data

Results flagged for a closer look

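In the 6 iPS libraries taken as a group, the summed value of the 4 reprogramming factors was 264632 in clone 1 at passage 25, apart from the other 5 libraries (192566 to 216470) by Dixon's criterion, which picks about 1 in 20 groups by chance; both pre-iPS libraries were higher, at 639399 and 698788. From passage 5 to passage 25 the summed value of the retroviral silencing list changed by 0.0918 on the log2 scale in pre-iPS and by -0.112, -0.0200 and -0.0140 in control, clone 1 and clone 2. The summed value of the Nodal, BMP and TGF-beta list changed by 0.0239 in pre-iPS and by -0.280, -0.0904 and -0.143 in the iPS lines. Neither difference between lines was tested.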

How the results depend on the processing

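The count of 2653 called genes stayed within 1.5 times under most of the 24 alternatives, from edgeR (2574), DESeq2 (2529) and the fit with passage as a replicate block (2905; 3237 against control, 2384 against clone 1 and 2927 against clone 2) to leaving out each library in turn (2006 to 2726, the lowest without the passage 5 pre-iPS library, where the lone pre-iPS sample is assumed to vary like the other lines). It did not with the adjusted p alone (5662, of which 2627 higher and 3035 lower), when the filter required a mean value of 50 (1690 in all, 1123 lower, with fewer genes tested) or with each line as 1 unit (872, of which 190 higher and 682 lower, with fewer samples). Quantile normalization gave 1182 higher genes; the cause was not tested. Over 155 named genes, 3359 of 3550 values kept their direction and side of the threshold. Of the others 151 were weaker, 55 of these with each line as 1 unit, 39 were stronger, and that of Zfp42 reversed to -0.54 with the clone 1 line left out, from 0.02. The replicate block changed the call of no named gene other than Unc5c and Dscam. Among lists, 7 netrin genes were higher under quantile normalization and 7 neural genes with the clone 1 line left out. Depth limits genes with a few reads in pre-iPS, for which the size of the decrease is set by the pseudocount.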

Other observations

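Over the genes tested, the Euclidean distance on log2(value + 1) was 63.8 between the pre-iPS passages. Between pre-iPS and the iPS lines it averaged 177.0 for control, 149.4 for clone 1 and 164.0 for clone 2, and between pre-iPS and MEF 285.6. Of 12962 genes with a mean of at least 100, 323 differed at least 2-fold between the passages of pre-iPS, against 312 in control, 395 in clone 1 and 389 in clone 2. On chromosome 8 the median log2 fold change was -0.18 against clone 2, 0.01 against control and -0.01 against clone 1.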
